A study of Oryza sativa Japonica Group and Oryza sativa Indica Group with 24 samples.

Results

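ADF5 is a rice gene for an actin-depolymerizing factor, and its transcript was followed here in the crown and growing point of rice at panicle initiation. The gene was picked by its name in the gene table (symbol or synonym, gene ID 4332220), which gave 1 gene with 1 probe set, of the 57381 probe sets on the array. It was picked with its salt response in these same arrays already known. Its salt minus control values are therefore a description, without a test, and tests on ADF5 are given only between control arrays. The gene table places the gene on chromosome 3.

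The study put total RNA from single samples on 24 Affymetrix rice arrays, in 4 sets with 3 salt-stressed and 3 unstressed control arrays each. The set m103 is of a japonica cultivar described by the submitters as sensitive, and the set agami is of a japonica cultivar they describe as tolerant. Both other sets carry the name ir29 in their titles, and they were kept apart as a first set (title numbers 7 to 12) and a second set (title numbers 19 to 24). The series text speaks of a sensitive indica, ir29, and a tolerant indica, ir63731, and because no title carries the second name, neither ir29-labelled set is given a tolerance class here. The titles call the replicates biological. Salt concentration, stress duration, plant age in days and plants per sample were not given in the sources used, so p-values measure the spread between these samples.

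Actin-depolymerizing factors (ADFs) are small proteins that bind actin monomers and filaments, sever filaments and speed the loss of subunits from their ends. Plants carry a family of ADF genes, some of them expressed mainly in pollen and others throughout the plant body. Actin filaments in plant cells carry organelles and vesicles and take part in cell expansion, and in Arabidopsis salt stress is known to rearrange them. Formins start and elongate filaments, villins bundle, cap or sever them, and the ARP2/3 complex, which the SCAR/WAVE proteins switch on, starts branched filaments.

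Signals are given on a linear intensity scale on which each array's trimmed mean is 500, and log2 values are log2(signal + 16). Of the 24 arrays, 15 were deposited on this scale and 9 (4 of the first ir29-labelled set and 5 of m103) were brought to it here. The ratio of the actin control probe sets near the 3' and the 5' end, which reflects how intact and how fully labelled the RNA was, lay between 4.11 and 10.1. It was 6.77 to 10.1 on salt arrays and 4.11 to 7.37 on control arrays in the second ir29-labelled set. It was 5.57 to 5.95 on salt arrays and 4.46 to 5.59 on control arrays in m103. For agami it was 4.52 to 6.25 on salt arrays and 4.18 to 5.30 on control arrays, and in the first ir29-labelled set it was 5.51 to 6.72 on salt arrays and 5.54 to 6.499 on control arrays. The part of this ratio in the results was not tested.

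ADF5 had a higher signal on every salt array than on any control array of the same set, in all 4 sets. In m103, ADF5 read 13991, 12599 and 13886 on salt arrays, against 4322, 5394 and 4467 on control arrays. The groups stood far apart there, with the lowest salt array 2.34 times the highest control array. The mean was 13492 ± 775 with salt and 4728 ± 581 in controls (SD, n = 3 each), a ratio of 2.85 and a log2 difference of 1.52 ± 0.13 (standard error).

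In agami, ADF5 read 7963, 8910 and 10031 on salt arrays, against 4280, 5108 and 4660 on control arrays. The lowest salt array was 1.56 times the highest control array. The mean was 8968 ± 1035 with salt and 4682 ± 414 in controls, a log2 difference of 0.93 ± 0.13. The salt arrays of agami differed among themselves more than those of m103, with a coefficient of variation of 11.5% in agami and 5.75% in m103.

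In the second ir29-labelled set, ADF5 read 11830, 11868 and 10738 on salt arrays, against 4996, 6716 and 6943 on control arrays. The salt arrays lay close together, and control replicate 1 lay below the other controls. The mean was 11479 ± 642 with salt and 6218 ± 1064 in controls, a log2 difference of 0.90 ± 0.13. The first ir29-labelled set read 8289, 11259 and 10558 on salt arrays, against 6379, 5999 and 6430 on control arrays. There salt replicate 1 was the lowest of the salt arrays and still 1.29 times the highest control array. The mean was 10035 ± 1552 with salt and 6269 ± 236 in controls, a log2 difference of 0.67 ± 0.13, the smallest of the 4 sets.

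**Figure D1:**
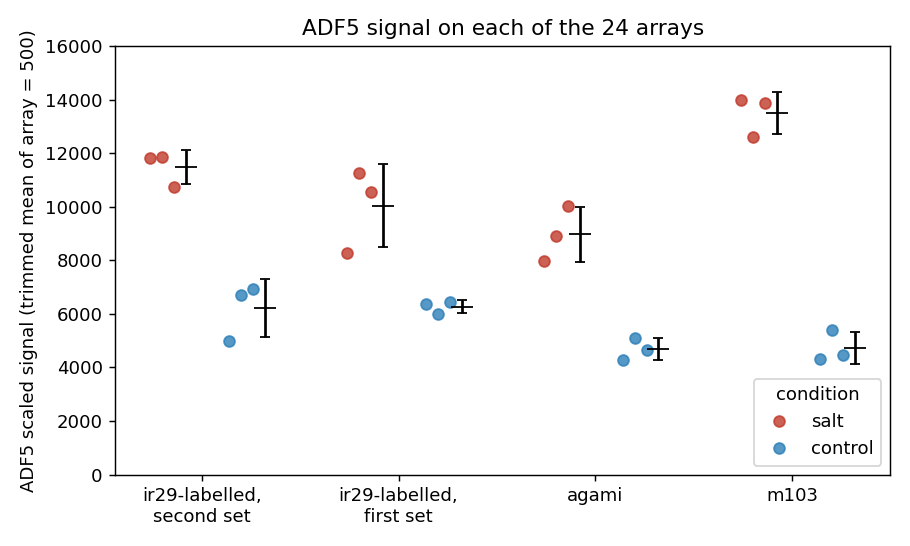
ADF5 scaled signal (linear axis, trimmed mean of each array 500) on each of the 24 arrays, by set, with salt arrays (red) left of control arrays (blue). The bar beside each group is its mean ± SD (n = 3); salt arrays of m103 lie between 12599 and 13991, and every salt group lies above the controls of its own set.

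Averaged over the 4 sets, the log2 difference of ADF5 was 1.002 ± 0.063. Across the 34355 probe sets bright enough to be tested, 231 (0.672%) had all salt arrays above all control arrays in each of the 4 sets, and ADF5 was among them. By the smallest of its 4 set differences ADF5 ranked 55th of 34355, highest first, and by the mean of the sets 196th. As the gene was picked with this response known, the ranks describe it and do not test it.

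The sizes of the salt difference varied between the sets. The agami difference was 0.58 ± 0.18 below that of m103 (-0.58 on the log2 scale). The second ir29-labelled set was 0.23 ± 0.18 above the first, and the mean of both ir29-labelled sets was 0.44 ± 0.13 below that of both japonica cultivars (-0.44). The japonica cultivars were not alike in this. The ratio of mean signals, salt over control, was 2.85 in m103 and 1.92 in agami. It was 1.85 in the second ir29-labelled set and 1.60 in the first, so agami lay nearer to these sets than to m103. These are descriptions and were not tested. In signal the gap between the cultivars lay on the salt side, since ADF5 read 8968 ± 1035 in agami and 13492 ± 775 in m103 with salt, and 4682 ± 414 in agami and 4728 ± 581 in m103 without it.

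The order of the 8 group means ran from salt-stressed m103 down through the salt-stressed second ir29-labelled, first ir29-labelled and agami sets to the controls of the first ir29-labelled set, the second ir29-labelled set, m103 and agami. Neighbours in this order overlapped in range with 2 exceptions. The m103 salt arrays (12599 to 13991) lay above the salt arrays of the second ir29-labelled set (10738 to 11868), and the agami salt arrays (7963 to 10031) lay above the controls of the first ir29-labelled set (5999 to 6430).

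Without salt, ADF5 was higher in the ir29-labelled sets than in the japonica cultivars. The control means were 6269 ± 236 and 6218 ± 1064 in the first and second ir29-labelled sets, against 4728 ± 581 in m103 and 4682 ± 414 in agami. The log2 difference was 0.40 ± 0.09 (limma adjusted p = 0.0009), where 15.9% of all probe sets tested were called higher and 16.1% lower in this comparison. The difference was there in each pair of sets that share a way of deposit. It was 0.44 ± 0.13 for the first ir29-labelled set minus m103 with only the arrays deposited unscaled (limma adjusted p = 0.033), and 0.40 ± 0.13 for the second ir29-labelled set minus agami, whose arrays were all deposited scaled (limma adjusted p = 0.035). The unscaled pair leaves out control replicate 2 of the first ir29-labelled set, which was deposited scaled. In the scaled pair the control ranges overlapped, with replicate 1 of the second ir29-labelled set at 4996 and replicate 2 of agami at 5108. Both pairs were added after the data had been seen. More transcript and a better match of the probes to the transcript of a variety cannot be told apart on these arrays.

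Within the japonica cultivars and within the ir29-labelled sets the controls did not differ detectably for ADF5. The log2 difference of agami minus m103 was -0.01 with a 95% interval of -0.27 to 0.25 (limma adjusted p = 0.98), in a comparison that called 5.35% of probe sets higher and 6.05% lower. The log2 difference of the second minus the first ir29-labelled set was -0.03 with a 95% interval of -0.29 to 0.23 (limma adjusted p = 0.93), in a comparison that called 6.81% higher and 6.79% lower.

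The other members of the ADF family were then set beside ADF5. The gene table names 10 ADF genes, and 9 of them have a probe set, while ADF3 has none listed. Apart from ADF5, 7 of the other 8 passed the filter on low signals. ADF9 did not, with group means of 0.837 to 23.2. Of these 7 genes, 1 rose with salt and 0 fell in m103, in the first ir29-labelled set, in the second and in the mean of the sets, and it was ADF10 each time. Over all probe sets tested, 4.17% were called higher and 4.67% lower in m103, 3.38% and 2.42% in the first ir29-labelled set, 4.41% and 4.42% in the second, and 9.16% and 8.59% in the mean of the sets. In agami, where 0.521% were called higher and 0.413% lower, limma called 0 of 7 ADF genes, with 2 at an unadjusted p under 0.05.

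ADF10 read 438, 373 and 391 on salt arrays of m103, against 216, 197 and 214 on control arrays. In the first ir29-labelled set it read 171, 231 and 232 with salt, against 138, 87.7 and 58.7 without, and in the second set 204, 146 and 208 with salt, against 85.5, 67.7 and 132 without. The salt and control ranges of ADF10 were apart in these 3 sets and in agami, where it read 264, 277 and 305 with salt, against 169, 161 and 237 without. Its log2 difference was 0.89 ± 0.24 in m103 (limma adjusted p = 0.022), 1.09 ± 0.24 in the first ir29-labelled set (limma adjusted p = 0.0076), 0.89 ± 0.24 in the second (limma adjusted p = 0.024) and 0.86 ± 0.12 in the mean of the sets (limma adjusted p = 2.6e-05). In m103 the call was lost when any 1 of the 6 arrays was left out (limma adjusted p 0.054 to 0.076). It was lost without control replicate 3 of the first ir29-labelled set (0.83, limma adjusted p = 0.063), and in the second set without control replicate 1, control replicate 2, salt replicate 1 or salt replicate 3 (limma adjusted p 0.059 to 0.11). In agami its log2 difference of 0.56 ± 0.24 was not called.

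The remaining ADF genes gave no call for salt in any set. ADF4 read 18918 ± 292 with salt and 19271 ± 1657 without in m103, and its log2 difference in the mean of the sets was -0.00 ± 0.05. ADF2 read 13377 ± 319 with salt and 13196 ± 1175 without in m103, with -0.06 ± 0.06 in the mean of the sets. ADF7 read 19138 ± 247 with salt and 17284 ± 843 without in m103, with -0.03 ± 0.06 in the mean. In m103 the salt and control arrays overlapped for ADF4 and ADF2, whereas ADF7 stood higher with salt on all 3 arrays without passing the test. The ADF4 probe set is of a kind that can match more than 1 transcript. ADF1 and ADF6 had group means of 38.3 to 84.2 and 29.3 to 72.3, and the standard errors of their log2 differences were 0.41 and 0.45 in every set.

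**Figure D2:**
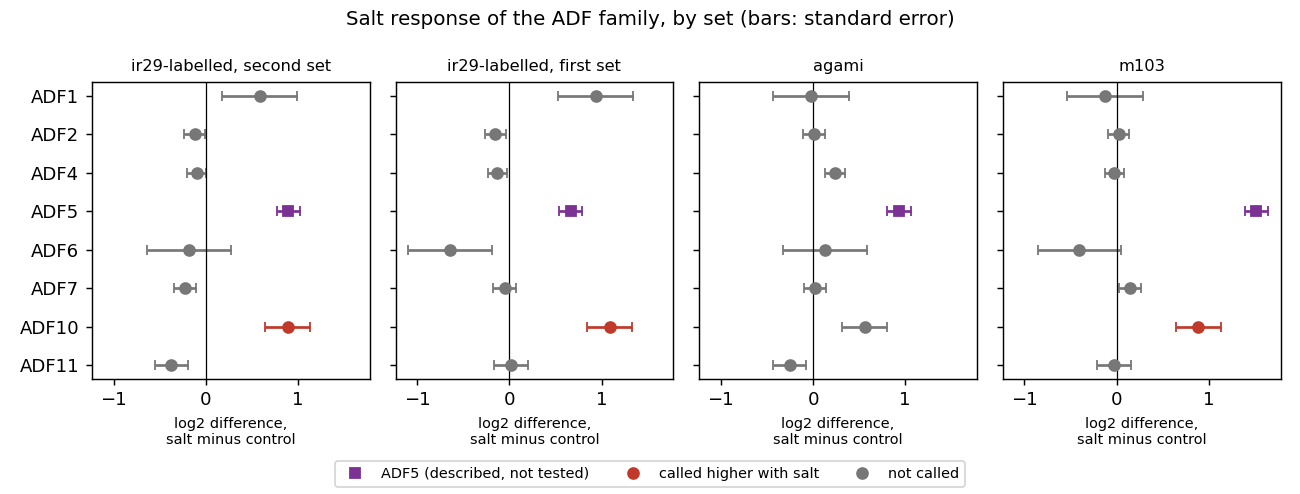
Log2 difference, salt minus control, of the 8 ADF genes that passed the filter, by set, with standard error bars. ADF5 (purple square, described and not tested) lies between 0.67 and 1.52, ADF10 (red where called) between 0.56 and 1.09, and no other ADF gene was called.

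Between control arrays the family members differed in direction. Where ADF5 was higher in the ir29-labelled sets than in japonica, ADF11 and ADF10 were lower. ADF11 read 509 ± 126 and 591 ± 47.8 in the first and second ir29-labelled sets, against 1710 ± 71.5 in m103 and 2088 ± 276 in agami, a log2 difference of -1.77 ± 0.13 (limma adjusted p = 8.5e-11). ADF10 was lower by a log2 difference of -0.99 ± 0.17 (limma adjusted p = 6.8e-05). Of the 7 other ADF genes tested, 2 were lower and 0 higher in this comparison. Over all probe sets tested it called 15.9% higher and 16.1% lower. As for ADF5, a difference in transcript level and a difference in probe match between varieties cannot be told apart.

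An actin list, of genes for actin, actin-related proteins and proteins that act on actin, was taken from symbols alone. The list without ADF5 held 33 genes with a probe set, and 31 were tested. Its 6 actin-related genes were ARP3, ARP4, ARP6, ARP7, ARP8 and ARP9, and of these only ARP3 is described here as an ARP2/3 subunit. Whether the others act in the actin cytoskeleton was not examined. Against all probe sets, of which 9.16% were called higher and 8.59% lower in the mean of the sets, 1 of the 31 rose (ADF10) and 7 fell. The median log2 difference of the 31 was -0.07, beside -0.01 over all probe sets tested. The 7 that fell were formins, villins, a SCAR/WAVE protein and an ARP2/3 subunit, and their falls were small.

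In the mean of the sets, the formin FH16 fell by 0.52 ± 0.14 on the log2 scale (limma adjusted p = 0.012). The villins VLN5 and VLN1 fell by 0.34 ± 0.07 (limma adjusted p = 0.00069) and 0.32 ± 0.07 (limma adjusted p = 0.0013). The formins FH5 and FH8 fell by 0.23 ± 0.06 (limma adjusted p = 0.011) and 0.22 ± 0.08 (limma adjusted p = 0.047). These means were not shared evenly. FH5 was at -0.68 in the second ir29-labelled set, and at -0.15 in m103, -0.04 in agami and -0.07 in the first ir29-labelled set. FH8 was at -0.42 in m103 and -0.40 in the second ir29-labelled set, and at -0.03 in agami and -0.04 in the first. NAP1, a SCAR/WAVE complex protein, fell by 0.16 ± 0.05 (limma adjusted p = 0.021), and ARP3, a subunit of the ARP2/3 complex, by 0.13 ± 0.05 (limma adjusted p = 0.047). The calls of FH8 and ARP3 were lost when any of 19 of the 24 single arrays was left out. The actins ACT1, ACT2, ACT3 and ACT7 gave no call in the mean of the sets.

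**Figure D3:**
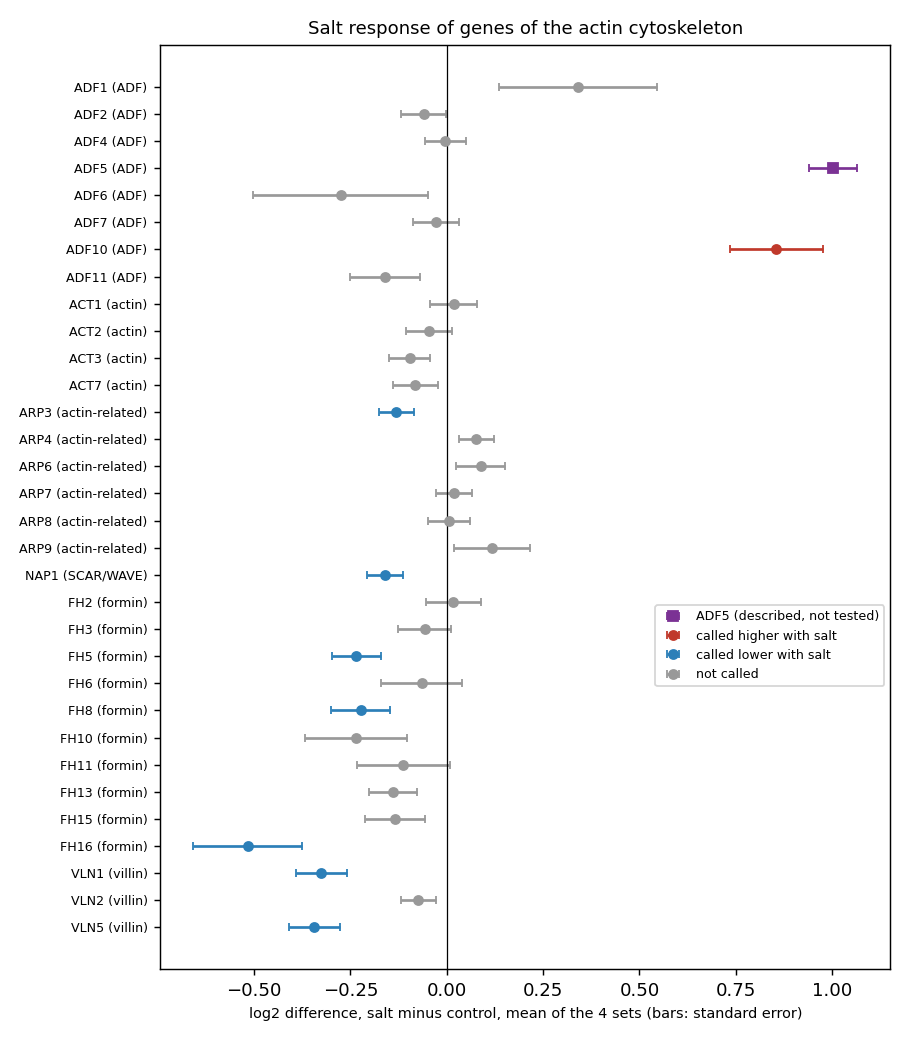
Log2 difference, salt minus control, in the mean of the 4 sets, for ADF5 (purple square, not tested) and the 31 other genes of the actin list tested, with standard error bars. ADF5 at 1.002 and ADF10 at 0.86 lie to the right, and the 7 genes called lower (blue) lie between -0.52 and -0.13.

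By set, the list outside ADF5 gave few calls. In m103, where 4.17% of probe sets were called higher and 4.67% lower, 1 of 31 was higher and 2 were lower (median log2 difference -0.02, beside 0.02 over all probe sets). In agami, where 0.521% were called higher and 0.413% lower, limma called 0 of 31, with 4 at an unadjusted p under 0.05 (median 0.02, beside -0.00). In the first ir29-labelled set, where 3.38% were called higher and 2.42% lower, 1 was higher and 2 were lower (median -0.16, beside 0.01). In the second, where 4.41% were called higher and 4.42% lower, 1 was higher and 4 were lower (median -0.16, beside -0.03).

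The gene called higher was ADF10 in m103 and in both ir29-labelled sets. In m103, FH16 read 220, 320 and 235 with salt, against 1019, 362 and 398 without, so that control replicate 1 stood apart. Its log2 difference of -1.01 ± 0.28 (limma adjusted p = 0.025) became -0.55 (limma adjusted p = 0.22) without that array, and the call was also lost without salt replicate 1 or salt replicate 3 (limma adjusted p 0.087 and 0.079). VLN1 read 540, 558 and 486 with salt, against 768, 670 and 728 without in m103 (log2 difference -0.44 ± 0.13, limma adjusted p = 0.04). Its call in m103 was lost when any 1 of the 6 arrays was left out (limma adjusted p 0.051 to 0.16).

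In the second ir29-labelled set, VLN5 read 1230, 1035 and 1530 with salt, against 2530, 1785 and 1694 without (log2 difference -0.65 ± 0.13, limma adjusted p = 0.0039). FH5 read 912, 728 and 1007 with salt, against 1580, 1202 and 1470 without in the same set (-0.68 ± 0.13, limma adjusted p = 0.0023). The salt arrays of both genes lay below all controls there. FH13 and ARP3 were also lower in that set, by -0.50 ± 0.12 (limma adjusted p = 0.013) and -0.34 ± 0.09 (limma adjusted p = 0.019). In the first ir29-labelled set the actin gene ACT3 and the villin VLN2 were lower, by -0.40 ± 0.11 (limma adjusted p = 0.026) and -0.36 ± 0.09 (limma adjusted p = 0.019). These smaller differences lost their calls without some single arrays. For ACT3 and VLN2 these were control replicates 2 and 3 and salt replicate 1 of the first set (limma adjusted p 0.073 to 0.16). For FH13 they were control replicates 1 and 3 and salt replicate 2 of the second set (limma adjusted p 0.056 to 0.095), and for ARP3 control replicate 1 and salt replicates 2 and 3 of that set (limma adjusted p 0.08 to 0.11). The ACT3, FH13 and VLN5 probe sets are of a kind that can also bind similar sequences.

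For 3 genes of the list the salt difference itself differed between the ir29-labelled sets, taken as the second minus the first, in a comparison that called 1.77% of probe sets higher and 1.74% lower. They were the actin-related protein ARP7, the formin FH13 and the villin VLN2, and each of these calls was lost when some single arrays were left out (7 of 12 arrays for ARP7 and 8 of 12 for FH13 and for VLN2).

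To find genes that moved like ADF5, the mean of each set was taken from the log2 values, and Pearson's r with ADF5 was computed over the 24 arrays for 2264 named genes. The arrays share their scaling, depth of signal and salt treatment, so r describes likeness and is given without a p. The median r was 0.04, and 48 genes had an r over 0.8. The 10 most alike genes ended at 0.879, and the next gene had 0.877.

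P5CS1, which encodes the enzyme that starts proline synthesis, was the most alike at an r of 0.96. It read 10146, 10146 and 10257 with salt in m103, against 7193, 8017 and 7506 without. Its log2 differences were small in every set, at 0.43 in m103, 0.34 in agami, 0.29 in the first ir29-labelled set and 0.34 in the second. After the group means were also removed, so that only differences among replicates remained, P5CS1 had an r of 0.73 with ADF5. In the actin list this replicate r ran from -0.54 for FH5 to 0.65 for ACT2. It was 0.63 for ADF4. Before that step ACT2 and ADF4 had an r of only 0.09 and 0.14, so a high replicate r is not particular to P5CS1.

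Cht1, a chitinase gene, had an r of 0.95 at far larger differences. It read 11174, 15727 and 7952 with salt in m103, against 39.8, 168 and 84.4 without, and 195, 355 and 381 with salt in agami, against 63.0, 27.7 and 44.3 without. Its log2 differences were 6.79 in m103, 2.41 in agami, 3.19 in the first ir29-labelled set and 4.40 in the second. Among replicates alone its r with ADF5 was 0.38.

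RAB21, a dehydrin gene known from rice under salt and abscisic acid, had an r of 0.88. It read 956, 655 and 562 with salt in m103, against 90.3, 112 and 102 without, and 2050, 2332 and 3166 with salt in the first ir29-labelled set, against 231, 143 and 120 without. For RAB21 the first ir29-labelled set had the largest log2 difference (3.83) and agami the smallest (2.03), whereas for ADF5 m103 had the largest and the first ir29-labelled set the smallest.

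The other alike genes were DAO (0.92), an auxin-oxidising enzyme, MTK1 (0.91), a methylthioribose kinase of the methionine cycle, DOHH-B (0.90), a deoxyhypusine hydroxylase, spdSyn1 (0.89), a spermidine synthase, and CML29, a calmodulin-like protein, RPL11, a ribosomal protein, and LysRS, a lysyl-tRNA synthetase (0.88 each). MTK1 read 4032, 4153 and 3801 with salt in m103, against 2409, 2506 and 2320 without, and spdSyn1 read 8597, 9365 and 8873 with salt, against 5185, 6710 and 6347 without. Both genes had every salt array of m103 above every control array. Their log2 differences in the mean of the sets were 0.52 and 0.35. RPL11 and LysRS had log2 differences of only 0.08 and 0.07 in the first ir29-labelled set, where their salt and control ranges overlapped. In the other sets these lay between 0.31 and 0.41.

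At the other end, MGD3, an enzyme of galactolipid synthesis, had an r of -0.94, OsPP2C54, named as a type 2C protein phosphatase, -0.92, GT43A, a glycosyltransferase, -0.91, and ALN, allantoinase, and FDRMADS8 -0.89 each. MGD3 read 1229, 1301 and 1478 with salt in m103, against 2832, 2531 and 2608 without. ALN read 1191, 1035 and 1366 with salt in m103, against 3460, 3852 and 3600 without, and 913, 949 and 846 with salt in the first ir29-labelled set, against 2804, 2823 and 3143 without. In these sets the salt arrays of both genes lay below all controls. Within the ADF family, ADF10 had an r of 0.81 with ADF5, and the lowest member had -0.31.

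**Figure D4:**
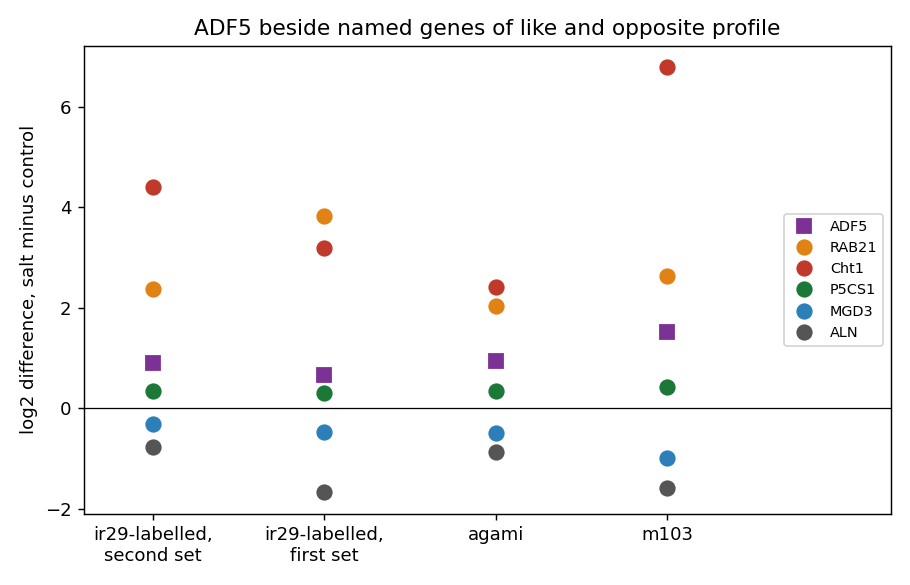
Log2 difference, salt minus control, by set for ADF5 (purple square), for P5CS1, Cht1 and RAB21, which are among the 10 named genes most alike to it, and for MGD3 and ALN, which are among the 5 least alike. P5CS1 stays between 0.29 and 0.43 in every set while Cht1 runs from 2.41 in agami to 6.79 in m103.

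Marker genes of the tissue and of other organs were set beside ADF5, since fewer cells of a type and less RNA per cell cannot be told apart in such samples. Of 12 growing point genes with a probe set, 10 were tested. OSH1, a KNOX gene of the shoot meristem, had group means of 1339 to 7085, while MADS34 and LFL1 stayed near 0 (group means of 4.53 to 33.3 and 3.23 to 20.3). In the mean of the sets, with 9.16% of all probe sets called higher and 8.59% lower, 2 of the 10 growing point genes were higher and 1 was lower with salt. OSH1 rose by 0.55 ± 0.10 on the log2 scale (limma adjusted p = 0.00054) and OSH6, another KNOX gene, by 0.23 ± 0.07 (limma adjusted p = 0.031), while the MADS-box gene MADS14 fell by 0.41 ± 0.10 (limma adjusted p = 0.0046).

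The growing point calls are given by set, and differences between the sets were not tested for these genes. In the second ir29-labelled set (background 4.41% higher and 4.42% lower), 1 of 10 was higher, OSH1 at 0.69 ± 0.21 (limma adjusted p = 0.037), and 0 were lower. In m103 (4.17% and 4.67%), 1 was higher, the KNOX gene OSH71 at 0.46 ± 0.13 (limma adjusted p = 0.034), and 0 were lower. In the first ir29-labelled set (3.38% and 2.42%), 0 were higher and 2 lower. They were MADS18, which read 3223 ± 182 with salt and 4516 ± 235 without (limma adjusted p = 0.002), and MADS14, which read 508 ± 110 with salt and 836 ± 83.5 without (limma adjusted p = 0.027). In agami (0.521% and 0.413%) limma called 0 of 10, with 0 at an unadjusted p under 0.05.

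The summed growing point signal was 11615 to 13720 with salt and 8867 to 11254 without in the second ir29-labelled set. In m103 it was 14063 to 15500 with salt and 12511 to 14006 without. The salt sums lay above all control sums in both sets, as the salt arrays did for ADF5. OSH1 had the largest rise in m103, at 6756 ± 441 with salt and 4470 ± 488 without. The m103 means of OSH71, OSH6, FON1, OSH3 and RFL were also higher with salt. Those of MADS18, MADS14, MADS15, OSH43, MADS34 and LFL1 were lower, so the sum does not describe each gene. The sum was 9235 to 11436 with salt (median 9579) and 9941 to 10749 without (median 10535) in the first ir29-labelled set. In agami it was 13233 to 15714 with salt and 13557 to 13918 without, where the ranges overlapped. The part of these genes in the ADF5 values was not tested.

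The root list had 24 genes, all tested, and was matched by symbol. It held the Casparian strip gene CASP1, CASP-like (CASPL) genes and the silicon transporters Lsi1 and Lsi2. CASP1 was dim, with group means from 20.8 (first ir29-labelled controls) to 62.1 (m103 controls). CASPL2A1 had group means from 5533 (m103 with salt) to 9607 (second ir29-labelled set with salt). Whether the CASP-like genes are particular to root was not examined. In m103, against a background of 4.17% of probe sets called higher and 4.67% lower, 2 were higher and 7 lower with salt, and the sum was 22711 to 26046 with salt and 28850 to 35449 without. In the second ir29-labelled set (4.41% and 4.42%), 1 root gene was higher and 1 lower, and the sum was 33583 to 37925 with salt and 32455 to 37327 without. In the first (3.38% and 2.42%) limma called 0, with 5 at an unadjusted p under 0.05. In agami (0.521% and 0.413%) limma called 0 of 24, with 5 at an unadjusted p under 0.05, and with so few calls among all probe sets this count does not describe the root genes. In the mean of the sets, where 9.16% of all probe sets were called higher and 8.59% lower, limma called 10 of the 24 root genes. An unadjusted limma p under 0.05 was reached by 14 in that mean, 14 in m103 and 8 in the second ir29-labelled set. The part of the root genes in the ADF5 values was not tested. The 3 leaf genes summed to 20946 to 39556 on salt arrays and 28180 to 40190 on control arrays. With salt, none of the 2 tested was called in any set by limma, with 0 at an unadjusted p under 0.05. CAB2R made up most of the sum, with group means of 24215 to 32276, while RBCS1 had 7.09 to 30.3. The sum does not show RBCS, which read 4965 ± 26.6 in m103 controls and 1068 ± 423 in agami controls. The 9 seed genes summed to 282 to 544 with salt and 271 to 576 without. C6 was the only gene of the pollen list with a probe set, and it did not pass the filter on low signals. It read 6.80 to 60.6 with salt and 13.998 to 61.3 without, and 1 such gene does not describe pollen.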

How the data were processed

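Per the labels' protocols, RNA was extracted with Trizol and biotin-labelled cRNA was hybridised, 1 sample per array. The deposited values are linear intensities, and the submitters' processing notes name GCOS 1.2; which signal algorithm it ran was not given in the sources used. The trimmed mean (lowest and highest 2% left out) was 500.07 to 500.08 on 15 arrays and 58.8 to 115.7 on 9, so all were scaled to 500. After removal of 123 control probe sets, those with a mean log2(signal + 16) above the 40th percentile (34355 of 57258, a signal of about 27.9) were fitted with limma 3.58.1 in R 4.3.3, 8 group means over 24 arrays, with an intensity trend. Tests were two-sided, and a call is an adjusted p under 0.05 (Benjamini-Hochberg, over the 34355 probe sets). For dim probe sets the added 16 makes fold changes too small. The titles gave control or salt, since the labels' description calls every sample unstressed. Errors of signals are SD over 3 arrays, those of log2 differences standard errors, and intervals 95%. The number of arrays limits the precision. Replicate arrays correlated at r = 0.960 to 0.971. The fit was tested on simulated data.

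Probe sets were named from the platform annotation (old; 1 gene for 22436 probe sets, several for 95) and the RefSeq gene table of assembly ASM3414082v1, used for names, the chromosome and neighbour order only. AIP1, CPA and the Rac GTPases were left out of the actin list because those symbols can denote other proteins, and no profilin, fimbrin or capping gene matched. Of a gene's probe sets the one with the highest mean signal was used. Named were all ADF genes, up to 10 called genes of the actin list by size of mean effect, and the 10 most and 5 least alike genes. The gene and the lists were chosen with earlier results of these data known. A search of promoter sequences was planned and not run, as none were used here. Other scalings, pseudocounts, filters, array subsets and a replicate block were tried. Figures were drawn with matplotlib 3.10.9.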

Additional observations from a re-analysis of the deposited data

Results flagged for a closer look

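The salt difference of 3 genes of the actin list differed between the ir29-labelled sets (second minus first) by the test of that difference. For ARP7, which was named only because of this test, the log2 difference between the sets' salt effects was 0.535 ± 0.13 (limma adjusted p = 0.03). ARP7 read 5935, 7051 and 6910 with salt and 5381, 5530 and 5740 without in the second set, and 3646, 4199 and 4419 with salt and 4802, 5346 and 4751 without in the first. For FH13 it was -0.6498 ± 0.17 (limma adjusted p = 0.041), with 832, 629 and 675 with salt and 1050, 840 and 1166 without in the second set, and 851, 1029 and 1000 with salt and 822, 849 and 921 without in the first. For VLN2 it was 0.4877 ± 0.13 (limma adjusted p = 0.038), with means of 17119 ± 900.5 with salt and 15683 ± 1227 without in the second set, and 16096 ± 1713 with salt and 20593 ± 1011 without in the first. After quantile normalization the values were 0.43, -0.50 and 0.29 for ARP7, FH13 and VLN2 and none was called (limma adjusted p 0.06, 0.11 and 0.12). With single arrays of these sets left out they stayed between 0.46 and 0.61, -0.78 and -0.55, and 0.40 and 0.55, and the adjusted p missed 0.05 without 7, 8 and 8 of the 12 arrays (limma, at most 0.083, 0.12 and 0.1). In limma's unadjusted test 9 of the 31 genes had a p under 0.05 in this comparison. The same difference for ADF5 was 0.23 ± 0.18 and was not tested.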

How the results depend on the processing

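The salt minus control difference of ADF5 kept its sign and moved by less than the replicate spread under every alternative run, between 1.45 and 1.61 in m103, 0.85 and 1.01 in agami, 0.55 and 0.80 in the first ir29-labelled set and 0.75 and 0.98 in the second. With only the arrays deposited unscaled it was 1.49 in m103 and 0.55 in the first ir29-labelled set. The control difference of the ir29-labelled sets minus japonica stayed called, at 0.36 to 0.53, the highest under median centring, which moved the median of all probe sets in that comparison to 0.12. The counts of actin list genes were less steady. In the first ir29-labelled set 1 of 31 was called with no intensity trend and 1 with only that set's arrays, instead of 3. In the second, 8 were called after quantile normalization and 0 with only that set's arrays (limma, 7 at an unadjusted p under 0.05), instead of 5. With single arrays left out, the counts were 0 to 1 in m103 (0 without control replicate 1 or salt replicate 3, with 6 and 4 at an unadjusted limma p under 0.05), 0 to 3 in the first ir29-labelled set (0 without control replicate 3, with 6 at an unadjusted limma p under 0.05, and 1 without control replicate 2 or salt replicate 1), 2 to 8 in the second (2 without control replicate 1, 3 without salt replicate 2 or 3, and 8 without salt replicate 1) and 6 to 8 in the mean of the sets. Same-numbered salt and control arrays of a set had correlated deviations of -0.05 to 0.20, so the numbers were not taken to pair them. With the replicate block, ADF5 gave 1.52, 0.93, 0.67 and 0.90 in m103, agami, the first and the second ir29-labelled set, and the actin list gave 3, 0, 4 and 6 calls (0 in agami by limma, with 4 at an unadjusted p under 0.05).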

Other observations

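The genes beside ADF5 on the chromosome, in the order of the gene table, were looked up after the values of ADF5 had been seen. Of the 3 genes on each side, 3 have a probe set. The gene directly after ADF5, LOC4332221, was higher with salt in m103 by 0.54 ± 0.14 (limma adjusted p = 0.013), in the first ir29-labelled set by 0.79 ± 0.14 (limma adjusted p = 0.00077) and in the mean of the sets by 0.44 ± 0.07 (limma adjusted p = 8.5e-05). Its differences in agami (0.23 ± 0.14) and the second ir29-labelled set (0.18 ± 0.14) were not called. LOC4332222, the next gene along, and LOC4332218, on the other side, were not called in any set, with differences in the mean of the sets of -0.03 ± 0.06 and -0.07 ± 0.08.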
